A study of Mus musculus with 7 samples.

Results

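Neuronal differentiation in the developing cardiac outflow tract (OFT) was examined through 8 marker genes: *Phox2a*, *Stmn2*, *Tubb3*, *Elavl3*, *Elavl4*, *Prph*, *Nefl* and *Nefm*. They were chosen by gene name. Of the 8, 6 had a row in the table of 14732 genes; *Phox2a* and *Prph* had none and were not analysed here. RNA-seq was done on polyadenylated RNA from mouse OFTs at embryonic day 11.5. There were 3 control pools (wild type in the labels, replicates 3, 4 and 5) and 4 Gata6STOP/+ pools (labelled as mutant, replicates 1, 3, 4 and 5), whereas the series' design text gives 3 pools for each genotype. Single values are given in the order of these replicate numbers throughout. Each pool was said to hold 4 pairs of OFTs, so a value is an average over several embryos. Gata6STOP/+ embryos are heterozygous for a premature stop codon that was introduced into *Gata6* with CRISPR-Cas9. The allele is carried from the germ line in every cell rather than in 1 cell type, and the mice descend from 1 selected founder that was backcrossed to C57BL/6. The labels name no treatment and no sex for the pools.

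A neuron that leaves the cell cycle switches on a shared set of genes whatever its later type. These encode the tubulin and stathmin proteins that build and remodel the microtubules of growing axons, the neurofilament proteins that form the intermediate filaments of the axon, and ELAV-like RNA-binding proteins that control splicing and stability of neuronal mRNAs. The neurons of the cardiac ganglia arise from neural crest cells, which also populate the OFT cushions. The GATA6 transcription factor itself acts in heart muscle, endocardial and smooth muscle lineages and in neural crest derivatives.

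The pools held 17783655 to 34467710 reads on listed genes. *Gata6*, the targeted gene, stood at 315, 257 and 286 CPM (a read count scaled to the depth of its pool) in the control pools and at 268, 203, 219 and 217 CPM in the Gata6STOP/+ pools. The 2 groups overlapped through control replicate 4 and Gata6STOP/+ replicate 1. The limma fold change was -0.34 on the log2 scale (SE 0.0987, adjusted p = 0.389), or -0.53 with the Y-linked level described below as a covariate. The paper's own edgeR test reported *Gata6* as lower and differentially expressed. Here edgeR's likelihood ratio test with same-numbered pools as blocks gave -0.42 (adjusted p = 0.0164). The summed level of 4 Y-linked genes was 39.9 to 93.4 CPM in controls and 70.4 to 174 CPM in Gata6STOP/+ pools. Control replicate 4 held the lowest Y-linked level and the highest *Ednrb* level, and replicate 5 of each group held the highest globin and other red cell transcripts within its group. The summed level of 6 red cell genes was 2091 to 5072 CPM in controls and 2373 to 6299 CPM in Gata6STOP/+ pools.

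The upstream sequences of *Elavl3* and *Tubb3* are shown because these were the 2 markers with lower means in Gata6STOP/+ pools. The *Elavl3* window covers the 250 bases before the annotated RefSeq start on the minus strand, chr9:22052024-22052273 (GRCm38.p6), and holds no base of an annotated exon. For *Tubb3*, 129 of the 250 bases before the RefSeq start lie in an annotated exon, so that only 30 bases around its TATAA are shown, chr8:123411511-123411540 on the plus strand. Capitals mark the letters searched, which were CANNTG (both strands, the core bound by basic helix-loop-helix proteins), CCAAT (both strands) and TATAA (strand of the gene).
Elavl3: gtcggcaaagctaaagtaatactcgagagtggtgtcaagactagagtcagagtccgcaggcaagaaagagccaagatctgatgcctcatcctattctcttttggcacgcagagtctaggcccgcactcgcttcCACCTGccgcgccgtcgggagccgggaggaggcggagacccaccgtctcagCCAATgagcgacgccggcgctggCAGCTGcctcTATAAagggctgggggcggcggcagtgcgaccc
Tubb3: ggggcagcctctTATAAgagggcgcggcgg
TATAA began 33 bases before the start of *Elavl3* and 30 bases before that of *Tubb3*, and a CCAAT on either strand began 66 and 77 bases before the start, respectively. The *Elavl3* window held 2 CANNTG matches, which began 117 and 43 bases before the start, and the *Tubb3* window held 0. Of all 32851 RefSeq promoter windows of that length, 16.0% held TATAA, 33.8% CCAAT and 66.2% CANNTG. *Elavl4* had 4 such windows, the most upstream of which (chr4:110351912-110352161) held 0 matches, while the other 3 held 3, 3 and 1 CANNTG and 1, 2 and 1 CCAAT. The GATA core GATAA, present in 22.6% of all windows, was in 0 of the *Elavl3* and *Tubb3* windows. A match is a description of letters only.

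Levels of different genes were compared as CPM per kilobase of merged exons. *Tubb3*, which encodes the neuronal class III beta-tubulin, was the most abundant marker, at 20.1 ± 5.48 CPM per kilobase in controls (SD, n = 3), above 82.5% of listed genes. *Stmn2*, a microtubule-destabilizing stathmin of growth cones, followed at 2.96 ± 0.430 CPM per kilobase, or the 33.5th percentile. *Nefl* reached 0.981 ± 0.184, *Elavl4* 0.600 ± 0.0586, *Nefm* 0.477 ± 0.0439 and *Elavl3* 0.273 ± 0.129 CPM per kilobase, all within the lowest 15.1% of listed genes. In controls no neighbours in this order overlapped between pools. In Gata6STOP/+ pools the means of *Nefm* and *Elavl4* changed places, at 0.654 ± 0.454 and 0.604 ± 0.0309 CPM per kilobase (SD, n = 4), and their ranges overlapped. The range of *Nefm* there, 0.351 to 1.32, also overlapped that of *Nefl*, 0.854 to 1.48 CPM per kilobase. The markers thus spanned from a well expressed tubulin to genes seen in few reads: *Elavl3* rested on 27 to 61 reads a pool, against 338 to 748 for *Stmn2*.

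**Figure D1:**
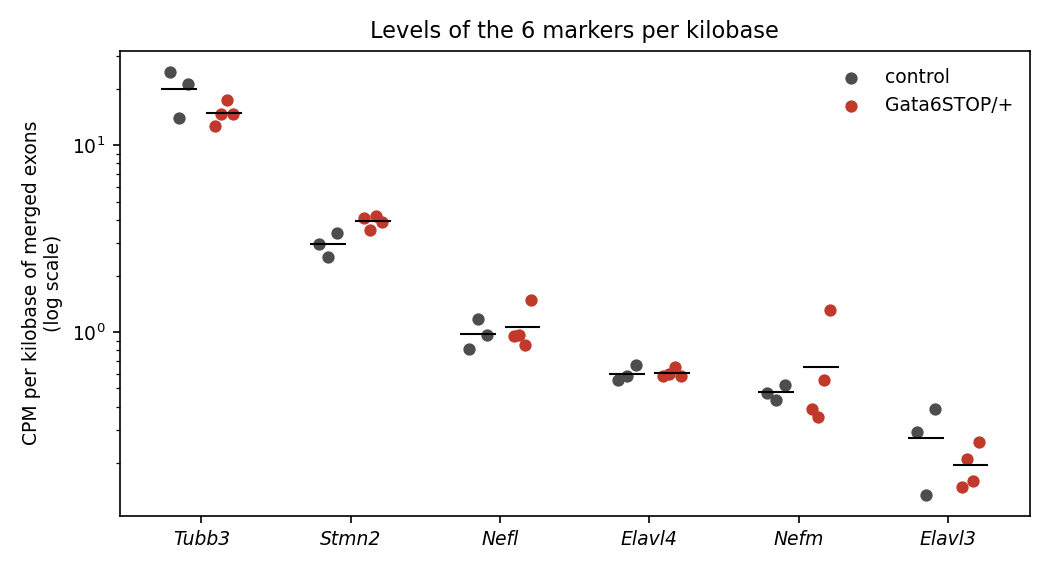
Levels of the 6 listed markers in CPM per kilobase of merged exons (log axis), 1 point per pool, in 3 control and 4 Gata6STOP/+ pools; bars are group means. *Tubb3* lies above the other 5 markers in every pool, and *Nefm* overlaps both *Elavl4* and *Nefl* in Gata6STOP/+ pools.

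The microtubule genes *Stmn2* and *Tubb3* had fold changes in opposite directions. *Stmn2* (ENSMUSG00000027500, chr3:8509360-8561606, plus strand, GRCm38) stood at 16.7, 14.1 and 18.9 CPM in the control pools and at 22.9, 19.8, 23.5 and 21.7 CPM in the Gata6STOP/+ pools. Every Gata6STOP/+ pool was above every control pool, by the narrow margin of 19.8 against 18.9 CPM. The means were 16.6 ± 2.41 (SD, n = 3) and 22.0 ± 1.62 CPM (SD, n = 4). The log2 fold change was 0.40 (SE 0.107, 95% interval 0.17 to 0.64), larger than that of 97.7% of listed genes, and did not pass the threshold over all genes (limma adjusted p = 0.333, unadjusted p = 0.00317). The exact two-sided permutation test of the 2 means gave p = 0.0571, the smallest value that 35 splits of 7 pools allow. With the Y-linked level of each pool as a covariate the log2 fold change was 0.20 (limma adjusted p = 0.644), and without control replicate 4, 0.30 (adjusted p = 0.448). Gata6STOP/+ replicates 1 and 4, the pools with the highest Y-linked levels, were also the highest for *Stmn2*; the part of sex in this difference was not tested beyond that fit. In these bulk pools, more or fewer neurons and more or less RNA per neuron cannot be told apart, for this or any other gene.

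*Tubb3* (ENSMUSG00000062380, chr8:123411424-123422015, plus strand) stood at 46.2, 26.2 and 40.0 CPM in the control pools and at 23.7, 27.6, 32.8 and 27.4 CPM in the Gata6STOP/+ pools. Control replicates 3 and 5 were above every Gata6STOP/+ pool, whereas control replicate 4 fell among the Gata6STOP/+ pools. The means were 37.5 ± 10.2 (SD, n = 3) and 27.9 ± 3.73 CPM (SD, n = 4), with a log2 fold change of -0.39 (SE 0.169, 95% interval -0.76 to -0.02). This did not pass the threshold either (limma adjusted p = 0.595, unadjusted p = 0.0407), and the exact permutation test gave p = 0.229. The value turned on the control pools: leaving out control replicate 4 gave a log2 fold change of -0.63 (limma adjusted p = 0.130), leaving out control replicate 3 gave -0.22 (adjusted p = 0.925), and the fit gave -0.68 with the Y-linked covariate (adjusted p = 0.320). *Tubb3* shares sequence on its own strand with the annotated gene *Gm20388*, which has no row of its own here, so that reads of the 2 may not have been separated.

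Set against each other in the same pool, *Tubb3* was 8.31, 5.57 and 6.34 times as abundant per kilobase as *Stmn2* in the control pools, and 3.11, 4.19, 4.19 and 3.77 times in the Gata6STOP/+ pools. The ratios did not overlap between genotypes, control replicate 4 included. This ratio was formed after the values of both genes had been seen and was not tested. It sets the marker with the lowest log2 fold change over the one with the highest. *Stmn2* alone already separated the groups, and was lowest in control replicate 4.

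**Figure D2:**
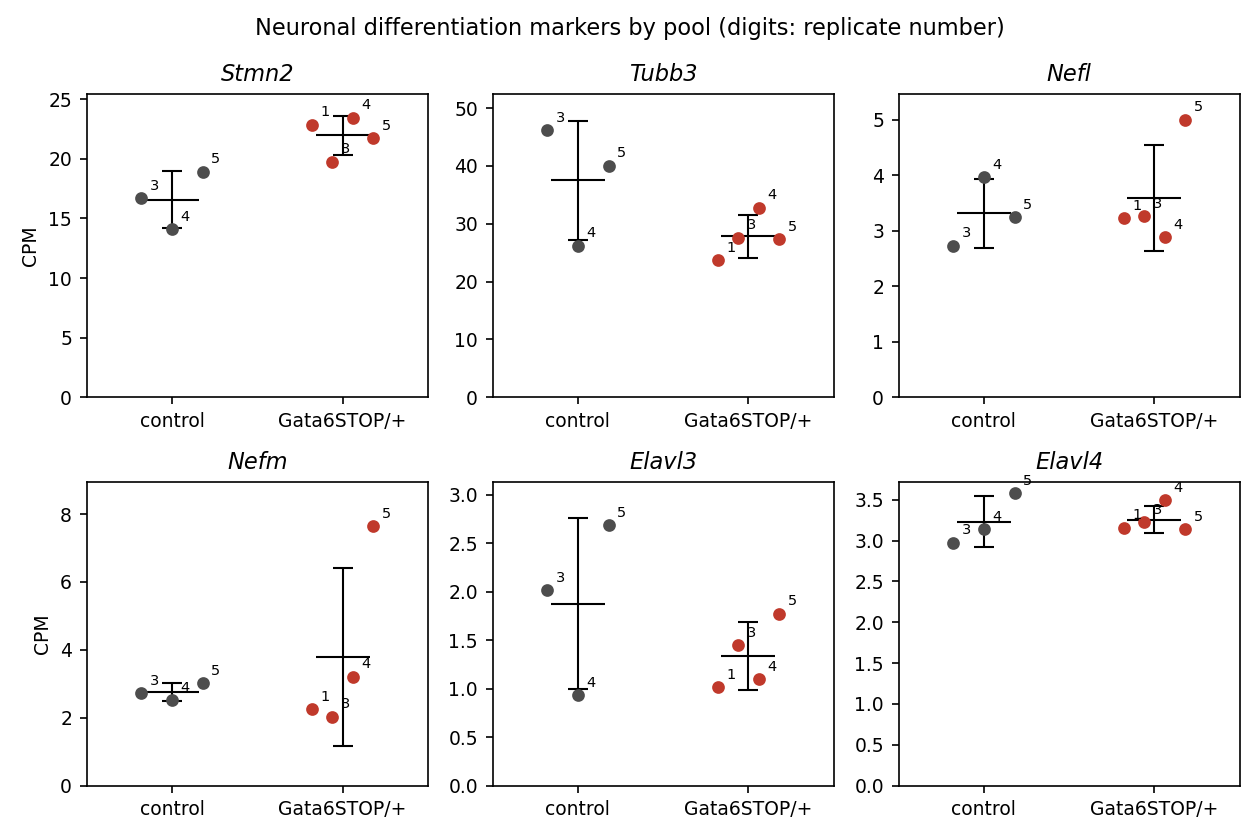
CPM of each listed marker in 3 control and 4 Gata6STOP/+ pools (points, with the replicate number beside them); the long bar is the mean and the error bar 1 SD, and each panel has its own axis from 0. *Stmn2* separates the groups, *Tubb3* and *Elavl3* overlap through control replicate 4, and *Nefm* is high in Gata6STOP/+ replicate 5.

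The RNA-binding genes encode HuC and HuD, which bind AU-rich stretches of neuronal mRNAs. *Elavl3* (HuC, ENSMUSG00000003410, chr9:22015005-22052023, minus strand) stood at 2.01, 0.932 and 2.69 CPM in the control pools and at 1.02, 1.45, 1.10 and 1.77 CPM in the Gata6STOP/+ pools. As with *Tubb3*, control replicates 3 and 5 were above every Gata6STOP/+ pool, and control replicate 4 was here below every one. The log2 fold change was -0.32 (SE 0.276, 95% interval -0.93 to 0.29; limma adjusted p = 0.809) and the exact permutation p = 0.343. Leaving out control replicate 4 moved it to -0.64, leaving out control replicate 5 to -0.07, and the Y-linked covariate to -0.52. *Elavl3* overlaps on its own strand with the annotated gene *Gm49318*, which has no row here.

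*Elavl4* (HuD, ENSMUSG00000028546, chr4:110203722-110351909, minus strand) was the steadiest marker. It stood at 2.97, 3.14 and 3.58 CPM in the control pools and at 3.16, 3.22, 3.50 and 3.14 CPM in the Gata6STOP/+ pools, with every Gata6STOP/+ value inside the control range. The means were 3.23 ± 0.316 (SD, n = 3) and 3.25 ± 0.166 CPM (SD, n = 4). The log2 fold change was 0.01 (SE 0.136; limma adjusted p = 0.987), and its 95% interval of -0.29 to 0.31 leaves room for changes of that size. The exact permutation p was 0.857. *Elavl2*, the third neuronal member of the family, also did not separate the groups, with 1.92 to 3.58 CPM in controls and 1.87 to 3.61 CPM in Gata6STOP/+ pools (log2 fold change 0.08, SE 0.236).

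The neurofilament genes *Nefl* (light chain, ENSMUSG00000022055, chr14:68083863-68089095, plus strand) and *Nefm* (medium chain, ENSMUSG00000022054, chr14:68082590-68124846, minus strand) encode subunits of 1 filament. *Nefl* lies within the annotated span of *Nefm* on the opposite strand, and their exons share 1108 bases. The library kit preserves strand, but the strand setting of the counting was not given in the sources used here, so that reads in the shared stretch could have been counted for either gene. *Nefl* stood at 2.73, 3.97 and 3.25 CPM in the control pools and at 3.23, 3.26, 2.89 and 5.0 CPM in the Gata6STOP/+ pools. *Nefm* stood at 2.73, 2.52 and 3.02 CPM in the controls and at 2.25, 2.03, 3.21 and 7.65 CPM in the Gata6STOP/+ pools. Gata6STOP/+ replicate 5 was the highest pool for both genes, and by more for *Nefm*, with 263 reads against 54 to 79 in the others. The other 3 Gata6STOP/+ pools overlapped the controls for both genes.

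The log2 fold change of *Nefl* was 0.09 (SE 0.193, 95% interval -0.34 to 0.51; limma adjusted p = 0.934) and the exact permutation p = 0.743. That of *Nefm* was 0.23 (SE 0.339, 95% interval -0.52 to 0.97; limma adjusted p = 0.897) and the exact permutation p = 0.914. Without Gata6STOP/+ replicate 5 both turned negative, to -0.06 and -0.14. *Nefh*, the heavy chain, did not share the high value of replicate 5: it stood at 0.896 to 1.49 CPM in controls and at 0.702, 2.17, 1.06 and 1.19 CPM in the Gata6STOP/+ pools (log2 fold change 0.00, SE 0.273).

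**Figure D3:**
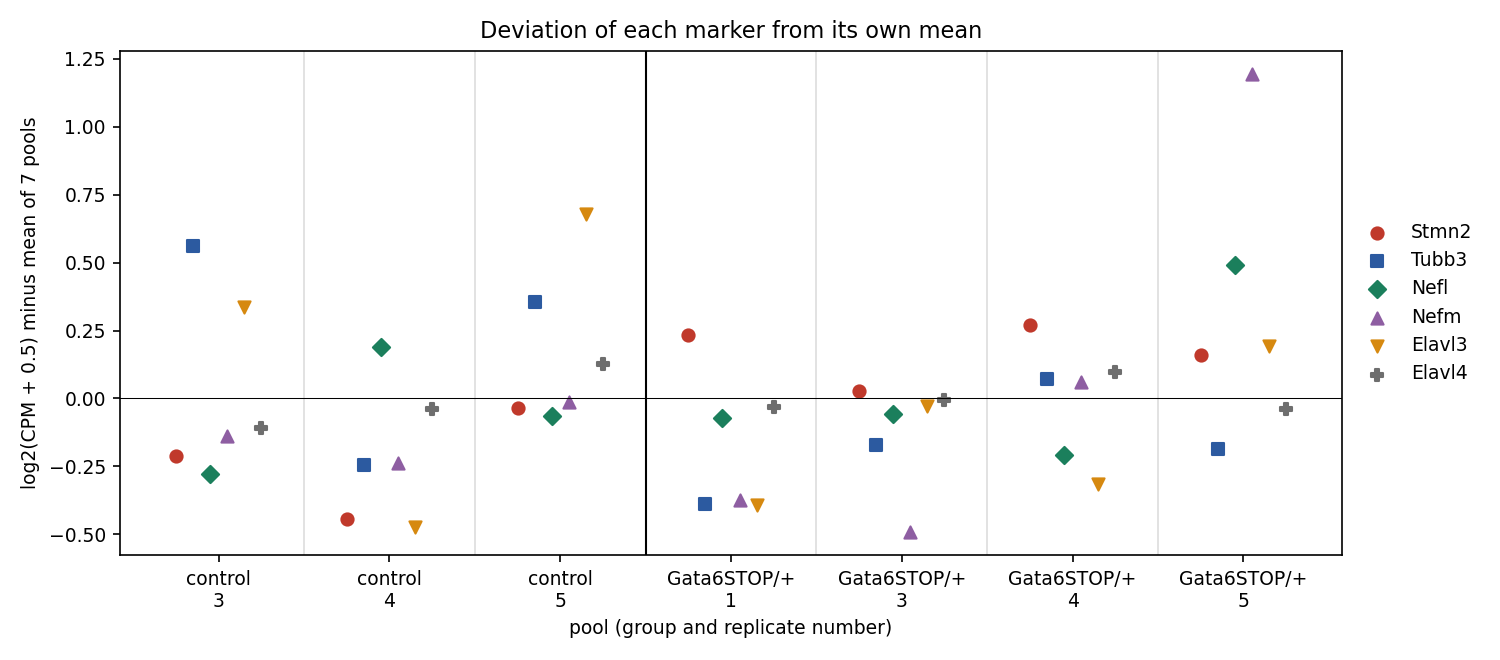
Deviation of log2(CPM + 0.5) of each listed marker from its own mean over the 7 pools, by pool, with controls left of the black line. In control replicate 4, 5 of the 6 markers lie below their mean, as do 5 of the 6 in Gata6STOP/+ replicates 1 and 3, and *Nefm* in Gata6STOP/+ replicate 5 lies furthest above its mean.

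Across the 6 listed markers, 4 had a log2 fold change above 0 and 2 below, with a median of 0.05 beside a median of -0.00073 over all genes. None passed the adjusted threshold in limma, where 0 of 14732 genes passed (0%), and 2 of the 6 (*Stmn2* and *Tubb3*, in opposite directions) had an unadjusted p under 0.05, beside 1187 genes in all, or 8.06%. The edgeR quasi-likelihood test likewise called 0 genes (1177, or 7.99%, with an unadjusted p under 0.05), whereas its likelihood ratio test called 105 (0.713%) and DESeq2 88 (0.597%), with 0 of the markers among them. Groups did not overlap for 1 of the 6 markers, *Stmn2*, beside 8.47% of all genes, and 4.31% of all genes lay above in every Gata6STOP/+ pool as it did. Without control replicate 4 this count became 3, with *Tubb3* and *Elavl3* below, but the background then rose to 19.1%, and without control replicate 5 it became 2, with *Elavl4* above, beside 16.2%.

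The markers also varied from pool to pool within a genotype. Their mean standardized level was lowest in control replicate 4 (-0.62) and Gata6STOP/+ replicate 1 (-0.41) and highest in replicate 5 of both groups (0.63 in control and 0.68 in Gata6STOP/+). Among the 11625 non-marker genes that averaged 5 CPM or more, the 10 whose log2 level followed this mean most closely over the 7 pools were *Epb42*, *Dpysl2*, *Hba-a1*, *Slc39a8*, *Nfe2*, *Mmp17*, *Hba-x*, *Gm49328*, *Hbb-bs* and *Trim10*, with Pearson's r of 0.93 to 0.97. *Dpysl2* (r = 0.97) encodes CRMP2, a tubulin-binding protein of axons. It stood at 123 ± 12.9 CPM in controls (SD, n = 3) and 123 ± 6.52 CPM in Gata6STOP/+ pools (SD, n = 4). *Hba-a1*, *Hba-x* and *Hbb-bs* are globin genes, *Epb42* encodes a red cell membrane protein and *Nfe2* a transcription factor of the erythroid lineage, and these were high in the same pools. The likeness is a description over 7 points that share libraries, and 2 to 7 of these 10 genes stayed among the first 10 when a single pool was left out, the fewest without Gata6STOP/+ replicate 5.

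Further neuronal genes were read from lists beside the markers. Of 33 other genes used across neuron types, 23 were listed, of which 10 had a log2 fold change above 0 and 13 below (median -0.04). None was called, and 5 had an unadjusted limma p under 0.05, beside 8.06% of all genes. For 2 (*Rtn1* and *L1cam*) the groups did not overlap, beside 8.47% of all genes in either direction. Both were lower in Gata6STOP/+ pools, where 4.16% of all genes lay below. *L1cam*, an adhesion molecule of growing axons, stood at 43.1, 21.6 and 24.4 CPM in the control pools and at 19.2, 16.7, 20.5 and 17.4 CPM in the Gata6STOP/+ pools. The log2 fold change was -0.61 (SE 0.192; limma adjusted p = 0.428), -0.31 without control replicate 3, which held its highest value, and -0.99 with the Y-linked covariate. *Rtn1*, a reticulon of the neuronal endoplasmic reticulum, stood at 30.0, 19.6 and 27.0 CPM in the controls and at 17.2, 17.2, 18.1 and 19.2 CPM in the Gata6STOP/+ pools. Its log2 fold change was -0.48 (SE 0.127; limma adjusted p = 0.333), and without control replicate 4 it was -0.65 and passed the threshold (limma adjusted p = 0.0466).

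The more abundant genes of that list had means close together. *Map1b*, which encodes a microtubule-associated protein, averaged 364 ± 27.3 and 371 ± 27.5 CPM in control and Gata6STOP/+ pools, and *Ncam1*, a neural adhesion molecule that heart muscle also makes, 207 ± 29.8 and 205 ± 19.7 CPM (SD, n = 3 and 4). *Uchl1*, a ubiquitin hydrolase of neurons, averaged 119 ± 17.7 and 128 ± 8.35 CPM. *Tubb2b*, another beta-tubulin of neurons, was closer to *Tubb3* in direction, at 171 ± 7.17 and 150 ± 9.57 CPM (log2 fold change -0.18, SE 0.0640; limma adjusted p = 0.484). *Stmn4*, a stathmin related to *Stmn2*, did not share its direction: the log2 fold change was -0.11 (SE 0.116; limma adjusted p = 0.846), with 27.6 to 38.7 CPM in controls and 28.0 to 35.6 CPM in Gata6STOP/+ pools. Without control replicate 3 it was -0.0044, and with the Y-linked covariate -0.30. *Crmp1*, a growth cone protein, gave -0.28 (SE 0.124; limma adjusted p = 0.598), which became -0.16 without control replicate 3 and -0.58 with the Y-linked covariate. *Nsg2*, a neuronal vesicle protein, gave 0.51 (SE 0.210; limma adjusted p = 0.577), or 0.27 with a constant of 2 in place of 0.5. *Rtn1*, *L1cam*, *Stmn4*, *Crmp1*, *Nsg2*, *Elavl2* and *Nefh* were picked out after their values had been seen.

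**Figure D4:**
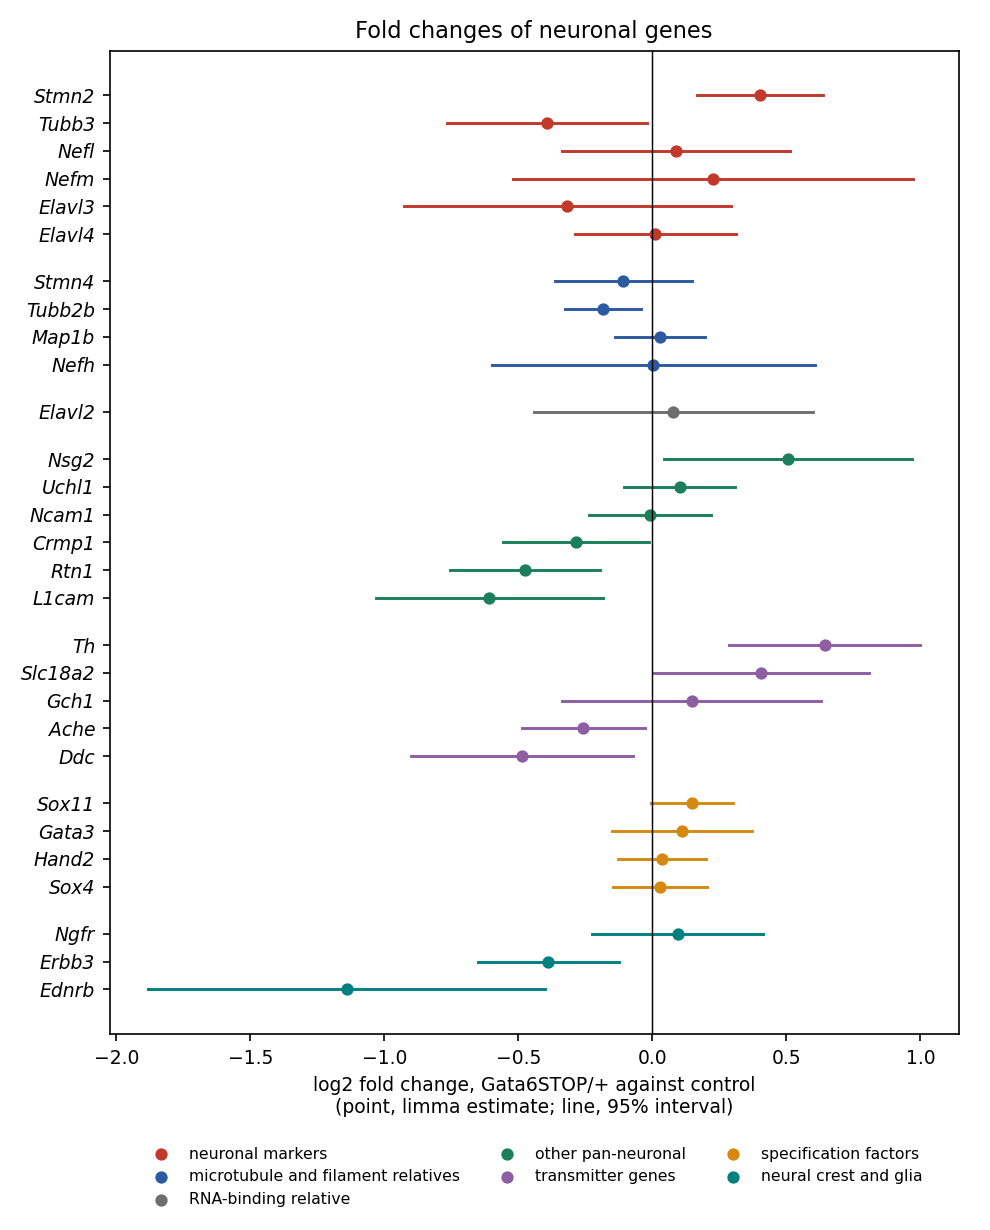
Limma log2 fold change, Gata6STOP/+ against control, with its 95% interval for the 6 listed markers and 23 related genes, grouped by role. *Stmn2* (0.40) and *Th* (0.64) lie right of 0 and *Tubb3* (-0.39), *Rtn1* (-0.48) and *L1cam* (-0.61) left of it, all without passing the adjusted threshold.

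Genes of the autonomic transmitters were read next, but bulk pools cannot assign their reads to neurons or to a type of neuron. Of 13, 7 were listed, 4 with a log2 fold change above 0 and 3 below (median 0.15, which became -0.10 without control replicate 4). *Th*, the rate-limiting enzyme of catecholamine synthesis, was low but separated the groups: it stood at 1.29, 1.14 and 1.51 CPM in the control pools and at 2.28, 2.43, 2.24 and 2.36 CPM in the Gata6STOP/+ pools. Its log2 fold change was 0.64 (SE 0.161; limma adjusted p = 0.285) on 27 to 81 reads a pool, and 0.39 with a constant of 2. *Ache*, which breaks down acetylcholine, lay below in every Gata6STOP/+ pool (17.5 ± 2.58 CPM in controls, 14.5 ± 0.592 in Gata6STOP/+; log2 fold change -0.26, SE 0.104; limma adjusted p = 0.560), with a log2 fold change of -0.15 without control replicate 3. *Ddc*, the decarboxylase that follows TH, gave -0.49 (SE 0.188; limma adjusted p = 0.541), but -0.042 with the Y-linked covariate. At 28.5 ± 4.85 CPM in controls (SD, n = 3) and 20.6 ± 5.66 CPM in Gata6STOP/+ pools (SD, n = 4), *Ddc* was far above *Th*. The cells that made it were not examined. *Slc18a2*, the vesicular monoamine transporter, gave 0.41 (SE 0.183; limma adjusted p = 0.614), or 0.25 without control replicate 3. *Gch1*, which makes the cofactor of TH, gave 0.15 (SE 0.220; limma adjusted p = 0.897), with values on both sides of 0 when single pools were left out. Of the 7 listed genes, 1 (*Th*) lay above in every Gata6STOP/+ pool and 1 (*Ache*) below. Beside them, 4.31% of all genes lay above and 4.16% below, or 8.47% in either direction. *Th* was singled out after its values had been seen.

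Of 10 factors that specify autonomic neurons, 6 were listed, and all 6 had a small log2 fold change above 0, from 0.03 to 0.15 (median 0.11), beside 49.8% of all genes above 0. Their median was -0.08 with the Y-linked covariate. *Sox4*, *Sox11*, *Hand2* and *Gata3* stood at 336 ± 27.5, 101 ± 9.51, 247 ± 23.2 and 29.0 ± 5.02 CPM in controls (SD, n = 3), and all are also made by non-neuronal cells of the OFT or pharynx. The gene with the largest value, *Sox11*, stood at 112 ± 4.24 CPM in Gata6STOP/+ pools (log2 fold change 0.15, SE 0.0693; limma adjusted p = 0.630).

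Markers of other neural sources were few and low. Of 14 genes of sensory ganglia and placodes, 5 were listed, all 5 with a log2 fold change above 0 (median 0.25), and of 9 genes of the neural tube 2 were listed, *Pax6* and *Sox2*, at 1.78 ± 0.496 and 1.67 ± 0.790 CPM in controls. In the sensory list *Eya1*, also a pharyngeal gene, gave 0.72 (SE 0.276; limma adjusted p = 0.534), *Ntrk3*, the NT-3 receptor, 0.35 (SE 0.256), *Isl2* 0.17 (SE 0.221) and *Runx1*, also a blood gene, 0.02 (SE 0.197). The defining placodal and sensory factors *Neurog1*, *Neurog2*, *Neurod1* and *Pou4f1* had no row, nor had *Olig2* and *Mnx1* of the neural tube.

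Neural crest and Schwann precursors, from which cardiac neurons and glia derive, were read from 12 genes. Of these, 8 were listed, 2 with a log2 fold change above 0 and 6 below (median -0.29), beside 49.8% of all genes above 0. For 1 of the 8 (*Ednrb*) the groups did not overlap, beside 8.47% of all genes in either direction. The summed level of the 8 genes was 146 to 194 CPM in controls and 111 to 137 CPM in Gata6STOP/+ pools. Without *Ednrb*, left out after its values had been seen, the sums overlapped, at 113 to 150 CPM in controls and 93.8 to 118 CPM in Gata6STOP/+ pools. *Ednrb*, the endothelin receptor of migrating crest cells, stood at 22.5, 81.0 and 27.8 CPM in the control pools and at 18.6, 17.2, 14.1 and 16.5 CPM in the Gata6STOP/+ pools (log2 fold change -1.14, SE 0.336; limma adjusted p = 0.393). Its log2 fold change was -0.58 without control replicate 4 (limma adjusted p = 0.201) and -0.47 with the Y-linked covariate (adjusted p = 0.717). *Erbb3*, the neuregulin receptor of Schwann precursors, gave -0.39 (SE 0.119; limma adjusted p = 0.419), with -0.23 without control replicate 3 and -0.64 with the Y-linked covariate. *Ngfr*, the p75 neurotrophin receptor, gave 0.09 (SE 0.144).

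The REST complex represses neuronal genes in other cells. All 8 of its listed subunits and partners lay within -0.06 to 0.06 on the log2 scale (median 0.04). Among the other tissues of the OFT, the median log2 fold change was -0.09 for 9 cardiomyocyte genes, 0.16 for 5 smooth muscle genes, 0.05 for 7 endothelial and endocardial genes, -0.10 for 6 cushion mesenchyme genes and 0.11 for the 2 listed epithelial keratins. It was 0.37 for 6 red cell genes and 0.95 for the 4 Y-linked genes, and 0 genes of any list were called in limma. The level of neuronal markers beside these tissues was low: the 6 markers summed to 50.9 to 73.4 CPM in controls and 56.2 to 67.0 CPM in Gata6STOP/+ pools, against at least 18136 CPM for the 9 cardiomyocyte genes in every pool. The part of tissue mix in any difference was not tested.

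**Figure D5:**
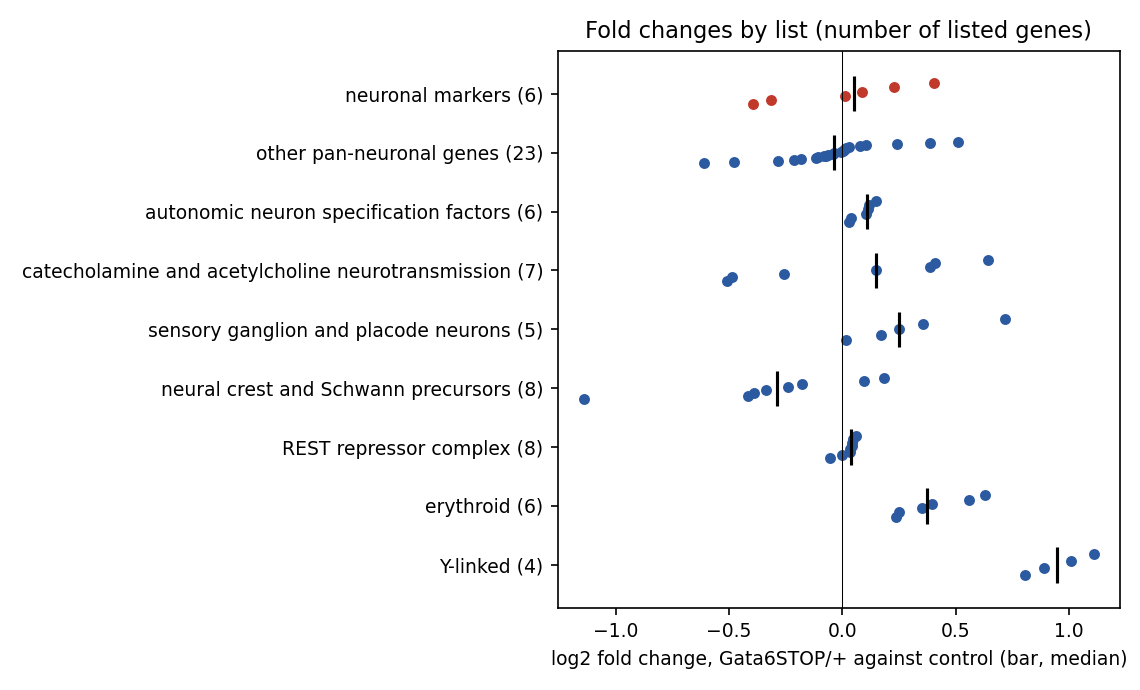
Limma log2 fold change of each listed gene, by list, with the median as a black bar; the number of listed genes is in parentheses. The 6 neuronal markers spread from -0.39 to 0.40 around a median of 0.05, while the Y-linked genes lie furthest right.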

How the data were processed

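Single-end reads of polyadenylated RNA, made with a directional kit, were trimmed with cutadapt, quantified with RSEM on GRCm38 with Ensembl genes and filtered in edgeR to genes that reached 1 CPM in 3 samples or more, per the study's methods. The authors deposited TMM-normalized CPM (scaled by a trimmed mean of log ratios between samples) for 14732 genes and 7 pools; every per-sample column was used. The CPM were 100% whole multiples of 1 read within 0.01 reads in each pool, and the recovered reads (17783655 to 34467710 a pool) were used for count tests. In control replicate 4 and Gata6STOP/+ replicates 3 and 5 the smallest value stood for 4, 2 and 6 reads, so the value of 1 read was found there by dividing it by whole numbers, and the read counts of these pools rest on that. The deposited table held no coordinates; GENCODE M21 of GRCm38 held 14716 of its identifiers. Promoter windows came from RefSeq (GRCm38.p6), which had rows for 3 of the 6 listed markers (*Tubb3*, *Elavl3* and *Elavl4*); merged exons served as gene length.

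The main test was limma 3.58.1 in R 4.3.3 on log2(CPM + 0.5), with a mean-variance trend and no covariate. It was two-sided and used all 7 pools, and p-values were adjusted by Benjamini-Hochberg over the whole table (threshold 0.05); fold changes on this scale understate those of genes with few reads. Exact two-sided permutation tests (scipy 1.17.1) compared mean CPM for the 6 markers and *Gata6* over 35 splits; these 7 p-values are unadjusted. Alternatives were constants of 0.1 and 2, only genes averaging 5 CPM or more, median-of-ratios scaling, DESeq2 1.42.0, edgeR 4.0.16, a replicate block, a Y-linked covariate and leaving out each pool. On simulated reads for 14732 genes, 200 of them changed, limma called 151 of the changed genes (52.0% of those changed by 0.5 and 98.0% of those changed by 1 on the log2 scale) and 14 unchanged ones; 4 genes were called when none was changed. The changed genes were drawn from those above 2 CPM, and each gene was simulated independently of the others. The shares called therefore do not cover genes as low as *Elavl3*, or differences between pools that many genes share. Replicates within a group differed beyond sampling noise, with a chi-square per gene of 10.9 to 32.3. Separate embryos were pooled, but the labels do not say whether pools came from separate litters, so p-values measure the spread between these pools. The reagent list of the study includes *Mib1* alleles, and whether these pools carried any is not given in the sources used here.

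Named genes were the 8 markers, the up to 4 most abundant listed genes of each of 14 lists, *Gata6* and the 10 genes most like the markers; other names are marked as chosen after their values were seen, and some items that this rule names are not reported here. The markers and lists were chosen with earlier results of these data known.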

Additional observations from a re-analysis of the deposited data

Results flagged for a closer look

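*Hbb-bs*, an adult beta-globin gene and one of the 10 genes most like the markers, stood at 84.9 CPM in Gata6STOP/+ replicate 5, with the nearest other Gata6STOP/+ pool at 31.1 CPM, a gap of 0.903 of the group's range. Of 67 named genes examined for a pool far from the rest of the Gata6STOP/+ group, it was the 1 flagged, and chance flags about 1 in 20 groups. *Nefm* and *Nefl* were highest in the same pool; the part of red cell content in their levels was not tested.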

How the results depend on the processing

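None of the 6 listed markers passed the adjusted threshold under any of the 18 alternatives that could be computed for it. *Stmn2* stayed above 0 (0.20 to 0.50, adjusted p 0.0848 to 0.644) and *Tubb3* (-0.68 to -0.22, adjusted p 0.130 to 0.942) and *Elavl3* (-0.64 to -0.07) below. *Nefl*, *Nefm*, *Elavl3* and *Elavl4* average under 5 CPM, so the fit limited to higher genes gives them no value. *Elavl3* and *Th* rested on few reads, 27 to 61 and 27 to 81 a pool.

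The number of genes called, 0 by limma, was 1 with a constant of 0.1, 105 in edgeR's likelihood ratio test, 88 in DESeq2, 6 with the Y-linked covariate and 0 to 13 with 1 pool left out. It was 13 without control replicate 4, 2 without Gata6STOP/+ replicate 3 and 1 without Gata6STOP/+ replicate 1. Likelihood ratio calls included *Rtn1* (-0.50) and *Ednrb* (-1.40).

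Whether replicate numbers pair the pools is not given in the labels. The deviations of same-numbered pools from their group means correlated at -0.0084 (replicate 3), -0.12 (replicate 4) and -0.0016 (replicate 5). No pool correlated best with the pool of its own number in the other group. Because the means rest on only 3 and 4 pools, these correlations cannot decide whether the pools are paired. With the replicate block, limma called 14 genes, edgeR's quasi-likelihood test 13 and its likelihood ratio test 118, *Ednrb* (-1.20) and *Gata6* (-0.42) among the last. The paper's edgeR log2 fold change for *Gata6* also rounds to -0.42, whereas the likelihood ratio test without a block gave -0.34 here. Limma gave *Gata6* -0.42 with the block, and also without a block when Gata6STOP/+ replicate 1 was left out. The paper's value therefore cannot tell a blocked fit from one without that pool. Gata6STOP/+ replicate 1 has no control of the same number, so it did not enter the blocked fold changes. In the blocked fits *Sox4* was -0.0094 in limma and -0.0093 in both edgeR tests. *Map1b* was -0.011 in limma and -0.0105 in both edgeR tests. The median of the transmitter genes became 0.28 in both blocked edgeR tests. For *Stmn2* the blocked limma log2 fold change was 0.38 and for *Tubb3* -0.32. Limma without a block and without Gata6STOP/+ replicate 1 gave the same values for *Sox4*, *Map1b*, *Stmn2* and *Tubb3*. The shifts of these genes in limma are thus those of leaving out that pool.

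With the Y-linked covariate the log2 fold change turned negative for *Nefm* (-0.073), *Elavl4* (-0.0020), *Sox4* (-0.15), *Hand2* (-0.088), *Gata3* (-0.070), *Gch1* (-0.18), *Map1b* (-0.10) and *Ngfr* (-0.17). Each of these had an unadjusted limma p above 0.05 in that fit, from 0.0860 for *Sox4* to 0.992 for *Elavl4*. The Y-linked genes were themselves higher in Gata6STOP/+ pools (median log2 fold change 0.95), so this fit cannot fully separate the covariate from genotype. List medians moved to -0.079 for autonomic specification factors, -0.042 for transmitter genes, -0.18 for other pan-neuronal genes, -0.49 for neural crest, -0.30 for cushion mesenchyme and 0.024 for Y-linked genes, which the covariate is made of. Among genes of 5 CPM or more, the median was -0.055 for transmitter genes and -0.15 for neural crest. *Nefh* turned to -0.012 with a constant of 0.1.

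With 1 pool left out, values ranged from -0.063 to 0.21 for *Nefl*, -0.14 to 0.42 for *Nefm*, -0.039 to 0.078 for *Elavl4*, -0.038 to 0.082 for *Sox4*, -0.036 to 0.10 for *Hand2*, -0.10 to 0.29 for *Gch1*, -0.011 to 0.089 for *Map1b*, -0.12 to 0.093 for *Ncam1*, -0.0074 to 0.21 for *Uchl1*, -0.14 to 0.26 for *Elavl2*, -0.21 to 0.17 for *Nefh*, -0.10 to 0.25 for the transmitter median and 0.14 to 0.49 for the sensory median. Markers without overlap numbered 1 to 3, and 2 to 7 of the 10 most similar genes were kept. The cause was not tested for any of these.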
